A study of Rattus norvegicus with 12 samples.

Results

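The antimicrobial proteins that the intestinal epithelium releases into mucus and lumen were followed in the colon of 12 male Wistar rats by 10 genes, Reg3a, Reg3b, Reg3g, Pla2g2a, Lcn2, Retnlb, Camp, Slpi, Lbp and Duox2, taken by name from the probes of the arrays. Each of the 10 genes has 1 probe, printed as 2 spots per array, so 10 of the 30367 probes on the array, or 10 of its 26514 gene names, are described. Group C (C1 to C4) was normally handled and received placebo. Group M (M5 to M8) underwent neonatal maternal separation (NMS), 180 min per day from postnatal day 2 to day 14, and received placebo. Group D (D9 to D12) underwent the same NMS and received VSL#3, a mixture of probiotic bacteria, from day 3 to day 60, at a dose of 18000000000, with no unit stated, in 100 µL saline per the labels. The methods of the study state a slightly lower dose. All 12 rats were treated daily by gavage, and placebo was given over the same days 3 to 60 and in the same 100 µL as VSL#3. At postnatal day 60 per the methods, all underwent colorectal distension, a painful stretch of the gut, before the colon was collected. Every group therefore carries the effect of the distension. RNA was taken from whole colonic tissue near the anus, where fewer cells of a type and less RNA per cell cannot be told apart.

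Epithelial defence proteins act in different ways. Lectins of the Reg3 family bind the cell wall of Gram-positive bacteria, and Reg3b also acts on Gram-negative bacteria. Pla2g2a, the group IIA secreted phospholipase A2, cleaves bacterial membrane phospholipids, and Camp is the cathelicidin precursor, from which a membrane-active peptide is cut. Lcn2, or lipocalin 2, withholds iron from bacteria by binding their siderophores, and Slpi is an inhibitor of leukocyte elastase and cathepsin G with antibacterial activity of its own. Retnlb, the resistin-like molecule of goblet cells, acts on Gram-negative bacteria, Lbp carries lipopolysaccharide to CD14, and Duox2 is the oxidase that makes hydrogen peroxide at the apical surface of the epithelium.

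The signals of closely related genes rest on their probes, and the first 30 of 60 bases of the Reg3 probes are shown because these 3 genes are paralogs that lie within 60622 bases of each other on chromosome 4 (rn4 build, as in the array files). The Reg3a probe lies at chr4:112368639-112368698 (+ strand), the Reg3g probe at chr4:112418369-112418428 (- strand), and the Reg3b probe spans 983 bases of genome, chr4:112357807-112358789 (+ strand), for its 60 bases.
Reg3a: tgcatcagacttgctgttatgattttccat
Reg3b: cagcttgtcaagatcttctggatttctaag
Reg3g: caatgggaagatcaacaacaacaacaaaaa
At the best ungapped alignment, 18 to 23 of the 60 bases of a pair of whole Reg3 probes were identical, and the longest shared run was 6 bases. The probes of Pla2g2a (chr5:157657033-157657092, + strand) and Slpi (chr3:155374636-155374695, - strand) are given whole, since both genes were highest in the same 5 rats, as described further on.
Pla2g2a: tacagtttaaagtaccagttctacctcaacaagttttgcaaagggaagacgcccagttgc
Slpi: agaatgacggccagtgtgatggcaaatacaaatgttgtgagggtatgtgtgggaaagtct
The Duox2 (chr3:109059361-109059420, - strand) and Camp (chr8:114214914-114214973, - strand) probes hold the letters AATAAA, in capitals in the 30 bases printed here, which 8.39% of all probes hold. AATAAA is the usual signal for polyadenylation, near which a transcript ends.
Duox2: ttggctgattgtaAATAAAgttgctataaa
Camp: gattcccaaaatAATAAActtggtaaaaga
Of the other members, the Lcn2 probe lies at chr3:11511592-11511651 (- strand), the Lbp probe at chr3:149043196-149043255 (+ strand) and the Retnlb probe at chr11:53227020-53227079 (- strand).

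Values are log2 signals relative to the 75th percentile of the same array, so 0 is the level of that percentile and 1 unit is a doubling, and a group is called different by limma where its adjusted p (Benjamini-Hochberg, all probes) is 0.05 or less and the means differ 2-fold or more. The methods of the study analysed 11 arrays and give no reason for leaving out D12, so the tests below use these 11 and the values of D12 are printed beside them. The 75th percentile was at a signal of 1434 to 1953 per array, and 75.5% to 77.5% of the spots of an array were well above background. Groups C and M shared 1 slide and Group D was on another slide and scan, so the slide and the treatment of Group D cannot be told apart. On the shared slide, Group C filled array row 1 and Group M array row 2, so array row and separation cannot be told apart either. Markers of colonocytes were detected throughout, with all 16 measured genes of that list well above background on all arrays.

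Rats within a group differed in markers of other cells. The summed linear signal of 7 B and plasma cell markers, relative to the 75th percentile, was 5.28 to 9.22 in Group C, 8.56 to 17.6 in Group M and 3.59 to 6.07 in D9 to D11, and 19.7 in D12. That of 11 macrophage markers was 32.6 to 63.2, 36.6 to 82.1 and 27.9 to 34.1, with 66.2 in D12, and that of 13 neutrophil markers was 0.304 to 0.722, 0.357 to 4.88 and 0.296 to 0.320, with 0.665 in D12. A linear sum weighs its brightest genes most. Lyz2, 1 of the macrophage markers, had a log2 signal of 5.63 in M7 and 5.09 in D12. Of the 13 neutrophil markers, which include S100a8 and S100a9, 4 were well above background on all arrays. Within Group M the lowest of each of these sums was that of M6, and within Group C the highest was that of C2. Elane and Ctsg, which define granules of immature neutrophils, were not well above background on any array, while the lists for B and plasma cells and for macrophages had no such gene. M6, C2 and D12 therefore stand apart from their groups, and results are given with and without them where a call changed or a value moved by over 1.5 times.

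None of the 10 antimicrobial genes was called different in any of the 3 comparisons. In Group M vs Group C, 0 of 10 passed limma, where 50 probes of all (0.165%) did, and the lowest adjusted p of a member was 0.203. In Group D vs Group M, 0 of 10 passed, against 0.128% of all probes, with a lowest adjusted p of 0.160. In Group D vs Group C, 0 of 10 passed, against 0.00659% of all probes, with a lowest adjusted p of 0.828. The criterion of the study's methods, which asks for an unadjusted p of 0.05 or less in both an analysis of variance and Tukey's test and for a 2-fold change, also passed 0 of 10 in each, where it passed 2.31%, 2.66% and 0.369% of all probes. At an unadjusted limma p of 0.05 or less and without a fold, 1 member (Duox2) passed in Group M vs Group C, 3 (Pla2g2a, Lbp and Duox2) in Group D vs Group M and 1 (Camp) in Group D vs Group C, where 22.7%, 21.6% and 5.97% of all probes passed. Set beside the shares of all probes, these counts of 1, 3 and 1 of 10 give no result about the members. The median difference of the 10 members was 0.29 for Group M vs Group C and -0.35 for Group D vs Group M, beside -0.01 and 0.01 over all probes. Both comparisons use the same 4 rats of Group M, so a high or low value there enters them with opposite signs.

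**Figure D1:**
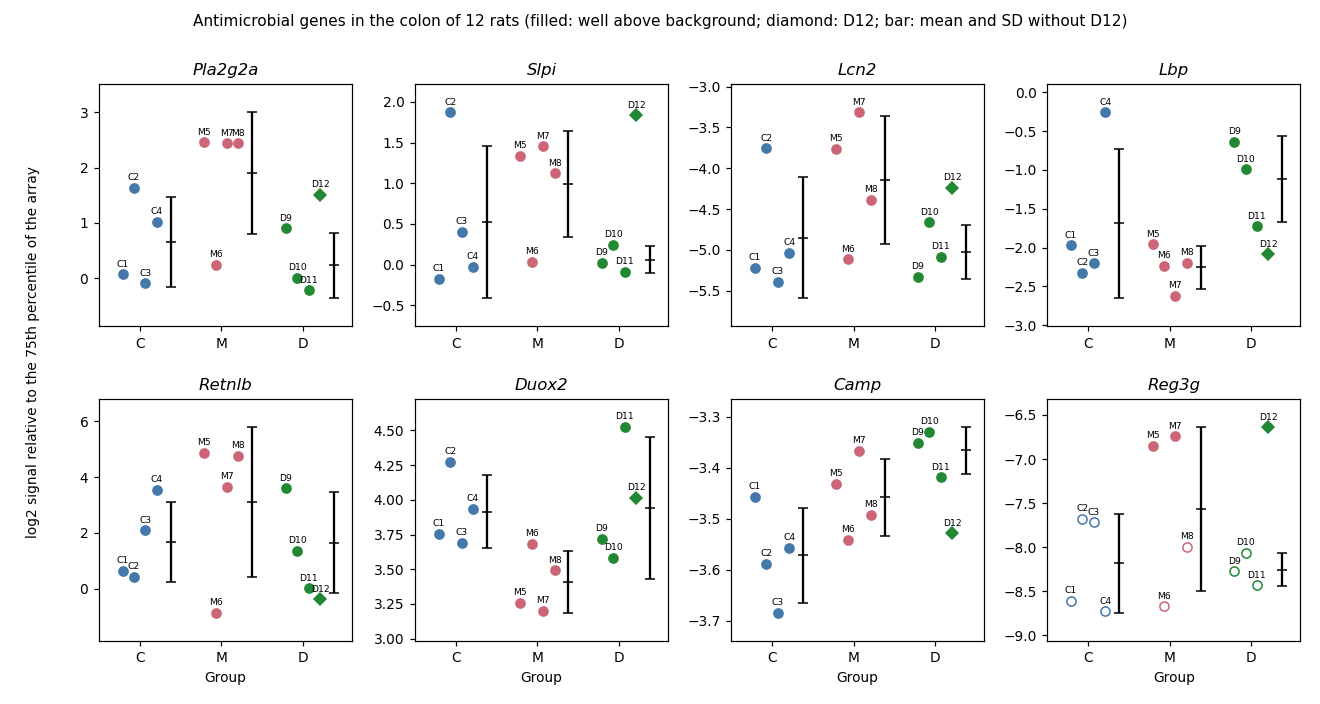
Signals of 8 members in each of the 12 rats, as log2 relative to the 75th percentile of the array, with 1 panel per gene and Groups C, M and D along the x axis. Filled points are well above background, open points are not, the diamond is D12, and the bar beside each group gives the mean and SD without D12. In Pla2g2a, M5, M7 and M8 lie at 2.44 to 2.45 and M6 at 0.24, and in Reg3g only M5, M7 and D12 are filled.

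The membrane-directed enzyme Pla2g2a had, on the 11 arrays, the largest difference among the members in Group D vs Group M and, next to Retnlb, in Group M vs Group C, neither of which passed the test. With D12 in the fit, Retnlb had the larger difference in Group D vs Group M too, at -1.96 beside -1.34. The Pla2g2a signal was 0.07, 1.63, -0.10 and 1.01 in C1 to C4, 2.45, 0.24, 2.44 and 2.44 in M5 to M8, and 0.90, 0.01 and -0.22 in D9 to D11, with 1.51 in D12. In 3 rats of Group M it was above every other rat, and M6 lay within the range of Group C. The means were 0.65 ± 0.81 (SD, n = 4) in Group C, 1.89 ± 1.103 (n = 4) in Group M and 0.23 ± 0.59 (n = 3) in Group D. Group M exceeded Group C by 1.24 (SE 0.56, 95% interval -0.02 to 2.49), a 2.36-fold difference with an adjusted p of 0.225 by limma. Group D was lower than Group M by a difference of -1.66 (SE 0.61, 95% interval -3.02 to -0.31), 3.17-fold, with an adjusted p of 0.160 by limma, which was 0.399 with D12 in the fit. Without M6 both differences were called by limma, at 1.79 (adjusted p = 0.0246) and -2.22 (adjusted p = 0.0170), while the probes called in all rose to 1772 and 1978. With all 12 arrays but M6, 0 members were called in either comparison.

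Slpi and Lcn2 varied over the same rats. Slpi was at -0.17, 1.87, 0.40 and -0.03 in C1 to C4, 1.34, 0.03, 1.46 and 1.12 in M5 to M8, and 0.02, 0.24 and -0.08 in D9 to D11, with 1.84 in D12. The groups overlapped in every comparison, and the 2 highest values belong to C2 and D12, which are not of Group M. Group M vs Group C differed by 0.47 (SE 0.45, 95% interval -0.53 to 1.46, adjusted p = 0.573 by limma) and Group D vs Group M by -0.93 (SE 0.48, 95% interval -2.00 to 0.15, adjusted p = 0.294 by limma). With D12 in the fit the latter was -0.48 (adjusted p = 0.745). The difference between Groups M and C was 0.92 without C2 (adjusted p = 0.120), 0.79 without M6 (adjusted p = 0.243), and 0.24, 0.29 and 0.31 without C1, C4 and M7, so that single rats of both groups set its size.

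Lcn2 was at -5.22, -3.76, -5.39 and -5.04 in C1 to C4, -3.76, -5.12, -3.32 and -4.39 in M5 to M8, and -5.33, -4.66 and -5.09 in D9 to D11, with -4.24 in D12. The groups overlapped here too, with C2 as high as M5. The difference was 0.70 (SE 0.43, 95% interval -0.26 to 1.67, adjusted p = 0.365 by limma) in Group M vs Group C and -0.88 (SE 0.47, 95% interval -1.92 to 0.16, adjusted p = 0.306 by limma) in Group D vs Group M. The former was 1.07 without C2 (adjusted p = 0.122) and 0.43 without M7 (adjusted p = 0.664). The 2 spots of the Lcn2 probe differed by up to 1.73 on 1 array, that of M5, whereas those of Pla2g2a and Slpi differed by at most 0.12 and 0.26 on any array.

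The 5 highest values of Pla2g2a, of Slpi and of Lcn2 all came from C2, M5, M7, M8 and D12, and so did those of the B cell genes Cd79b, Ms4a1 and Pou2af1, of Lyz2 (lysozyme 2, abundant in macrophages) and of S100a8 and S100a9 (the calprotectin subunits of neutrophils). Of 20305 probes well above background on all arrays, 1497 (7.37%) had the same 5 rats highest as Pla2g2a, and 20.8% had at least 4 of the 5. The part of these other cells in the differences of Pla2g2a, Slpi and Lcn2 was not tested. Mpo, which neutrophils also carry, did not follow this order and had 1 of its 5 highest values among these rats. Its signals were near background, at 15.76 to 27.87 before scaling, a 2.03-fold range, and well above it on 11 of 12 arrays, so its order says little. Fcnb, of the same neutrophil list and well above background on all 12 arrays, was highest in the same 5 rats as Pla2g2a. Genes outside the B cell, macrophage and neutrophil lists were also highest in C2, M5, M7, M8 and D12, among them Cxcl1, Cxcl2, Rnase6 and Slc11a1. Mmp7, listed for Paneth cells and well above background on 7 of 12 arrays, was another. The Paneth cell list as a whole did not follow this order. The summed linear signal of its 7 measured genes was 54.81 to 96.29 in Group C, lowest in C2. It was 63.6 to 74.13 in Group M, lowest in M7, and 66.97 to 95.19 in D9 to D11, with 39.71 in D12. Defa8 and Pnliprp2 of that list were not well above background on any array.

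**Figure D2:**
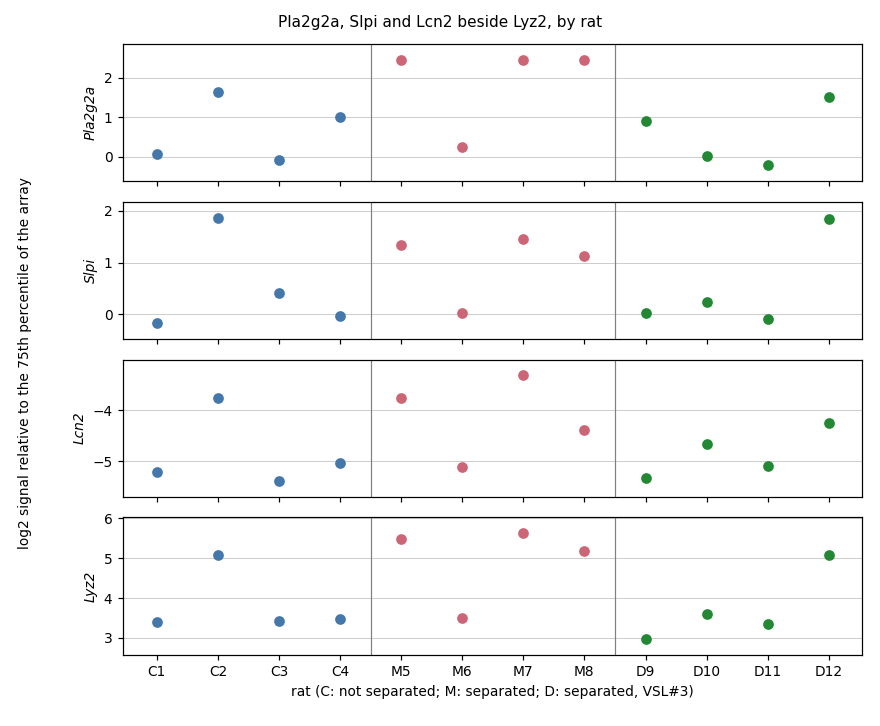
Signals of Pla2g2a, Slpi and Lcn2 above those of Lyz2, 1 panel per gene, as log2 relative to the 75th percentile of the array, for each rat of Groups C, M and D from left to right. In all 4 panels the 5 highest points are C2, M5, M7, M8 and D12, and M6 is among the low points, with Pla2g2a at 0.24.

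The Reg3 lectins were at or near background. Reg3a and Reg3b were not well above background on any of the 12 arrays, so no fold is given for them. Reg3g was at -8.61, -7.68, -7.72 and -8.73 in C1 to C4, -6.85, -8.67, -6.74 and -7.99 in M5 to M8, and -8.27, -8.06 and -8.43 in D9 to D11, with -6.64 in D12. It was well above background in M5, M7 and D12 alone, which are among the 5 rats named above. The mean of Group M, which includes M6 and M8 near background, was 1.09-fold higher than the background level of Group C. It was 1.03-fold higher than that of D9 to D11. The adjusted p by limma, 0.424 and 0.418, belong to the differences of the measured means, which was 0.62 for Group M vs Group C. These folds and differences rest on signals at or near background. The spots of Reg3g differed by up to 1.57 on 1 array. Of 13 genes listed for the Reg family and secreted lectins, 5 were never well above background and 0 passed either test in any comparison.

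Duox2 was the member whose Groups M and C did not overlap. Its signal was 3.76, 4.28, 3.69 and 3.94 in C1 to C4, 3.26, 3.68, 3.20 and 3.49 in M5 to M8, and 3.72, 3.58 and 4.53 in D9 to D11, with 4.01 in D12. Every rat of Group M was below every rat of Group C, although M6 (3.68) and C3 (3.69) almost met, and such a gap toward lower values was found for 5.04% of all probes. Group M was lower than Group C by a difference of -0.51 (SE 0.22, 95% interval -0.99 to -0.02), 1.42-fold, with an adjusted p of 0.203 by limma. Group D vs Group M differed by 0.53 (SE 0.24, 95% interval 0.01 to 1.06, adjusted p = 0.224 by limma), overlapping at D10, and by 0.24 without D11.

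Duoxa2, the maturation factor that brings Duox2 to the cell surface, is the neighbour of Duox2 on chromosome 3 in the RefSeq annotation of the GRCr8 assembly, and showed larger differences between the same groups. It was at -3.11, -2.78, -3.00 and -3.09 in C1 to C4, -3.76, -4.08, -3.89 and -4.01 in M5 to M8, and -2.91, -3.46 and -2.35 in D9 to D11, with -2.39 in D12. All rats of Group M, M6 included, were below all rats of Groups C and D. Among all probes, 5.04% had every rat of Group M below every rat of Group C, and 8.46% had D9 to D11 above all of Group M. The share of probes with both gaps at once, or with D12 included, is not given here. Group M vs Group C differed by -0.94 (SE 0.20, 95% interval -1.39 to -0.49, adjusted p = 0.0895 by limma), a 1.92-fold difference. Group D vs Group M differed by 1.03 (SE 0.22, 95% interval 0.54 to 1.52, adjusted p = 0.0810 by limma), 2.04-fold, which passed the criterion of the methods but not limma. C2 and D12, high in B cell and macrophage markers, were at 4.28 and 4.01 in Duox2 and at -2.78 and -2.39 in Duoxa2. The part of these cells in the differences of either gene was not tested. With array weights, which count less the arrays that fit their group poorly, Duoxa2 was called in Group D vs Group M (1.03, adjusted p = 0.0104) and was under 2-fold in Group M vs Group C (-0.92, adjusted p = 0.00832). Without M6 the adjusted p for Duoxa2 was 0.0304 for Group M vs Group C and 0.0292 for Group D vs Group M, at differences of -0.89 and 0.98, both under 2-fold. The relatives Duox1 and Duoxa1 differed between Groups M and C by -0.04 (SE 0.19, adjusted p = 0.931 by limma) and -0.28 (SE 0.13, adjusted p = 0.245 by limma), and their groups overlapped. The sign of the Duox1 difference turned in 5 of 23 alternative settings (0.07 without M6), and that of Duoxa1 was -0.17 without M7.

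**Figure D3:**
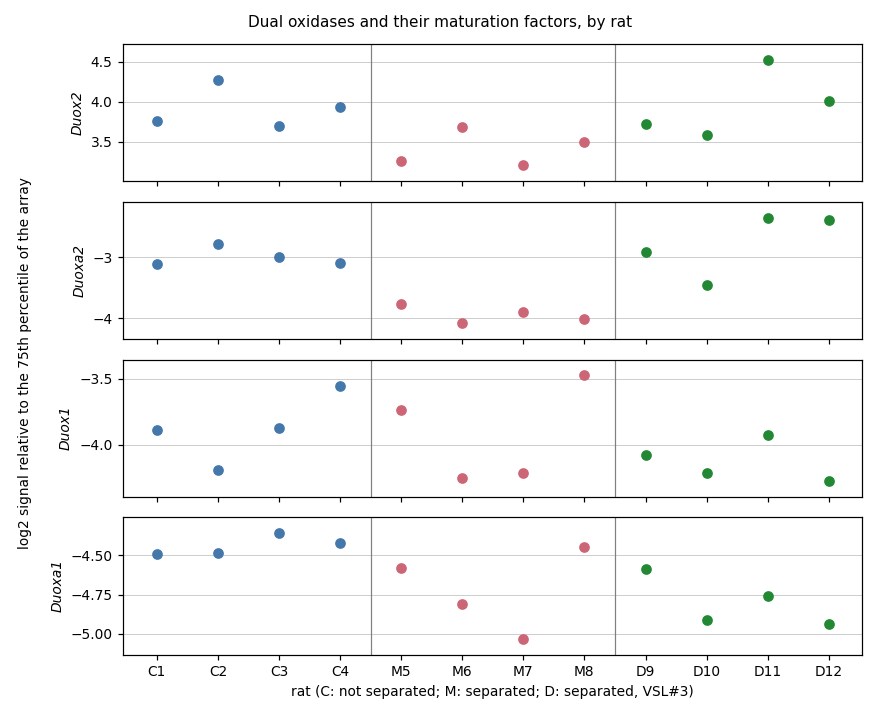
Signals of Duox2, Duoxa2, Duox1 and Duoxa1, 1 panel per gene, as log2 relative to the 75th percentile of the array, for each rat of Groups C, M and D from left to right. In Duox2 and Duoxa2 all 4 rats of Group M lie below all 4 rats of Group C, and in Duoxa2 they also lie below D9 to D12. Duox1 and Duoxa1 overlap between Groups M and C.

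In the list of epithelial oxidases and peroxidases, which held 11 genes all well above background, Duox2 among them, 0 passed limma. Gpx2, a glutathione peroxidase of the gut epithelium, passed the criterion of the methods in Group M vs Group C, with a difference of 1.78 (SE 0.54, adjusted p = 0.118 by limma).

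The goblet cell product Retnlb varied more between rats than any other member. It was at 0.65, 0.43, 2.09 and 3.53 in C1 to C4, 4.88, -0.86, 3.64 and 4.75 in M5 to M8, and 3.60, 1.35 and 0.01 in D9 to D11, with -0.38 in D12. The lowest and the highest rat, M6 and M5, belong to 1 group and are 53.4-fold apart, a range wider than that of 99.88% of the probes well above background on all arrays, whose median range is 0.84 on the log2 scale. The difference was 1.43 (SE 1.31, 95% interval -1.49 to 4.35, adjusted p = 0.557 by limma) in Group M vs Group C and -1.45 (SE 1.42, 95% interval -4.60 to 1.70, adjusted p = 0.599 by limma) in Group D vs Group M. These intervals are wide enough to hold a change of over 2-fold in either direction. Without M6 the differences were 2.75 (adjusted p = 0.0759) and -2.77 (adjusted p = 0.0943), and -3.28 (adjusted p = 0.131) in Group D vs Group M with D12 in the fit and M6 left out. Without M5 or M8 they were 0.84 or 0.88 and -0.86 or -0.90, and Group D vs Group M was -2.42 without D9 and -0.63 without D11, so single rats moved the size of both. C2 and D12 were low in Retnlb, unlike in Pla2g2a, Slpi and Lcn2.

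Retnla and Retnlg, resistin-like relatives of Retnlb, had ranges of 43.1-fold and 64.1-fold. Retnla was at -1.93, -3.12, -0.14 and 0.74 in C1 to C4, 1.001, -4.42, -0.64 and 0.89 in M5 to M8, and 0.62, -1.21, -3.32 and -4.43 in D9 to D12. Retnlg was at -2.73, -3.28, -1.01 and -2.08 in C1 to C4, 1.34, -3.92, 0.43 and -0.03 in M5 to M8, and -1.58, -1.91, -4.67 and -4.40 in D9 to D12. All 3 were highest in M5, and M6, D11 and D12 were the 3 lowest rats of each. Their probes shared 16 to 22 of 60 bases at the best alignment and runs of at most 7 bases. The major goblet cell mucin Muc2 lay between 4.50 and 5.91 over the 12 rats. The summed linear signal of 9 goblet cell markers was 142.7 to 303.3 in Group C, 187.5 to 212.6 in Group M and 140.4 to 266.1 in D9 to D11. It was 95.64 in D12, the lowest of all rats. The part of goblet cell content in the values of Retnlb was not tested. Of 11 measured genes of the resistin family and goblet cell antibacterial products, 0 passed either test in any comparison, although limma called Retnlg in both comparisons with Group M when M6 was left out.

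**Figure D4:**
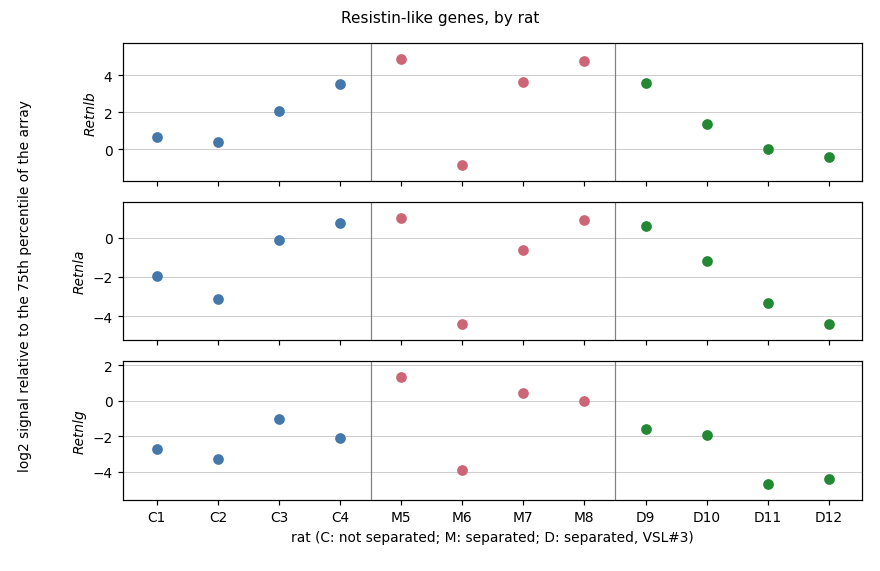
Signals of Retnlb, Retnla and Retnlg, 1 panel per gene, as log2 relative to the 75th percentile of the array, for each rat of Groups C, M and D from left to right. M5 is the highest point of each panel, and M6, from the same group, is among the low points, at -0.86 in Retnlb.

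Lbp had the opposite order of group means to Pla2g2a. It was at -1.97, -2.33, -2.20 and -0.26 in C1 to C4, -1.96, -2.24, -2.62 and -2.20 in M5 to M8, and -0.64, -0.99 and -1.72 in D9 to D11, with -2.09 in D12. D9 to D11 were all above Group M, a gap toward higher values that 8.46% of all probes had, and D12 lay inside Group M. Group D vs Group M differed by 1.14 (SE 0.46, 95% interval 0.11 to 2.17), 2.20-fold, with an adjusted p of 0.195 by limma, and by 0.89 (adjusted p = 0.451) with D12 in the fit. Group M vs Group C differed by -0.57 (SE 0.43, 95% interval -1.52 to 0.39, adjusted p = 0.471 by limma), and by -0.09 without C4, whose value alone set Group C apart. Bpi, a relative of Lbp that binds and permeabilises Gram-negative bacteria, differed between Groups M and C by -1.07 (SE 0.37, adjusted p = 0.141 by limma), and C4 was again the highest rat at -3.78. Of the 15 measured genes for metal sequestration and lipopolysaccharide binding, S100a10 passed the criterion of the methods in Group M vs Group C with 1.32 (adjusted p = 0.0998 by limma). Slc11a1, a metal transporter of phagosomes, passed it in Group D vs Group M with -1.39 (adjusted p = 0.113 by limma). For Slc11a1, D12 was at -4.43, inside Group M, and the difference was -1.06 (adjusted p = 0.371 by limma) with D12 in the fit.

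Camp, the cathelicidin gene, had nearly the same signal in all rats. It lay between -3.68 and -3.46 in Group C, between -3.54 and -3.37 in Group M and between -3.42 and -3.33 in D9 to D11, with -3.53 in D12. Only 6.20% of the probes well above background had a narrower range than its 1.28-fold. D9 to D11 were above all of Group C, which 3.54% of all probes were, by 0.21 (SE 0.09, 95% interval 0.01 to 0.40, adjusted p = 0.828 by limma), a 1.15-fold difference that D12 did not share. The differences were 0.11 (SE 0.08, 95% interval -0.07 to 0.30) for Group M vs Group C and 0.09 (SE 0.09, 95% interval -0.11 to 0.29) for Group D vs Group M, the latter 0.05 with D12 in the fit.

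**Figure D5:**
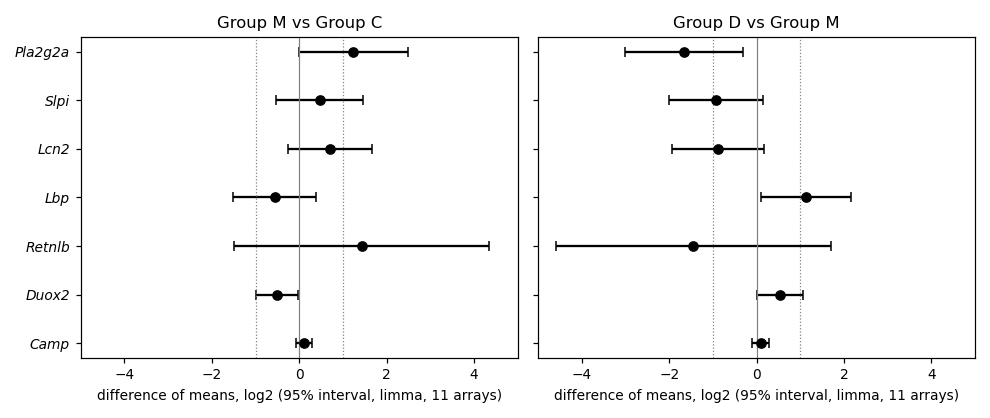
Differences of group means in log2 for the 7 members well above background on all arrays, with 95% intervals from limma on 11 arrays, for Group M vs Group C on the left and Group D vs Group M on the right. The solid line is no difference and the dotted lines are 2-fold. Pla2g2a is at 1.24 and -1.66, and the interval of Retnlb is the widest in both panels.

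The wider lists of epithelial defence held 124 measured genes in 9 lists, of which 0 passed limma in any comparison. Without M6, limma called 18 of them (14.5%, beside 5.84% of all probes) in Group M vs Group C and 22 (17.7%, beside 6.51%) in Group D vs Group M. These fits also leave out D12. With D12 in the fit and M6 left out, 1 gene, the WAP domain protein gene Wfdc15b, was called in each of these comparisons. By the criterion of the methods, Group M vs Group C and Group D vs Group M each had 5 genes that passed (4.03%, beside 2.31% and 2.66% of all probes) and Group D vs Group C had 0. At an unadjusted p of 0.05 or less, Group M vs Group C had 20 higher (16.1%, beside 10% of all probes) and 14 lower (11.3%, beside 12.6%). Group D vs Group M had 12 higher (9.68%, beside 11.3%) and 24 lower (19.4%, beside 10.3%), and Group D vs Group C had 3 higher and 6 lower (2.42% and 4.84%, beside 2.98% for either sign). The lists were chosen with earlier results known, so these shares are a description. Among 18 measured defensins, lysozymes and antimicrobial ribonucleases, 5 were never well above background, and Rnase6, a ribonuclease of leukocytes, passed the criterion of the methods in Group D vs Group M with -1.96 (SE 0.47, adjusted p = 0.0891 by limma). For Rnase6, D12 was at -3.66, inside Group M, and the difference was -1.34 (adjusted p = 0.42 by limma) with D12 in the fit. Of 11 secreted phospholipases A2, 10 were well above background on all arrays and 0 passed the criterion, and at an unadjusted p of 0.05 or less Group M vs Group C had 0 higher and 3 lower, Group D vs Group M had 3 higher and 3 lower, and Group D vs Group C had 1 of each. Of 9 measured antiproteases and WAP domain proteins, the kind of protein Slpi is, 0 passed.

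Genes that act upstream of these proteins in other settings, the cytokines IL-22 and IL-17 and their signalling, were mostly detected, with 20 of 25 measured genes well above background on all arrays. Il22 and Il17f themselves were not well above background on any array. Socs3, an inhibitor of cytokine signalling that STAT3 induces, differed between Groups M and C by 1.61 (SE 0.36, adjusted p = 0.0923 by limma) and Group D vs Group M differed by -1.73 (SE 0.39, adjusted p = 0.0831 by limma). Both differences passed the criterion of the methods, and the latter was -1.02 (adjusted p = 0.536) with D12 in the fit. Group M did not overlap Groups C and D9 to D11 in Socs3, where M6 was at -3.12 and C2 at -3.39, while D12 was at -1.08. Of all probes, 4.18% had every rat of Group M above every rat of Group C, and 7.38% had D9 to D11 below all of Group M. Il6 passed the criterion in Group M vs Group C, 2.13-fold higher than the background level, and was well above background in 1 of 4 rats of Group M. That rat was M7, at -4.56, while M5, M6 and M8 lay between -8.11 and -6.98 and D12 was at -4.88. Of the 12 measured genes of the bacterial response, the neutrophil chemokines Cxcl1 (2.67 in Group M vs Group C, adjusted p = 0.115 by limma) and Cxcl2 (-3.37 in Group D vs Group M, adjusted p = 0.124 by limma) passed the criterion of the methods. For Cxcl2, D12 was at -0.85 while D9 to D11 were between -5.95 and -5.55, and the difference was -2.14 (adjusted p = 0.533) with D12 in the fit. The differences given here for Gpx2, Bpi, S100a10, Slc11a1, Rnase6, Socs3, Cxcl1 and Cxcl2 were all called by limma without M6, with adjusted p of 0.00987 to 0.0469. That fit also leaves out D12. With D12 in the fit and M6 left out, none of them was called by limma, with adjusted p of 0.0571 (Gpx2) to 0.307 (Socs3 in Group D vs Group M).

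Promoters in RefSeq (GRCr8, 250 bases before to 50 after a start site) were found for 8 members, all but Slpi and Lbp. On both strands, the letters TTCNNNGAA, which STAT proteins can bind, were in the promoters of Reg3b and Retnlb and in 8.87% of the 33469 promoters of that length. The NF-kB consensus was in those of Lcn2 and Reg3g and in 4.18% of all promoters. The matches, in capitals within 30 bases of the strand of the gene, lie on chromosome 4 for both Reg3 genes, at chr4:112419636-112419665 (+ strand) for Reg3b and chr4:112484847-112484876 (- strand) for Reg3g, and at chr3:36082001-36082030 (- strand) for Lcn2 and chr11:65448306-65448335 (- strand) for Retnlb.
Reg3b: tcacctgctctTTCTTGGAAactctttgag
Retnlb: gtaacatatccTTCCCCGAAgacctcaaaa
Reg3g: tgcttttgatGGGAACCCCCtagagtccat
Lcn2: gggctctgGGAATGTCCCttcagctccccc
These are matches of letters only, and binding was not measured.

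In Group D vs Group C, the differences of the 6 other members well above background (Pla2g2a, Lcn2, Retnlb, Slpi, Lbp and Duox2) lay between -0.46 (Slpi) and 0.57 (Lbp), with adjusted p of 0.968 to 1 by limma. Single rats set both: that of Slpi was -0.01 without C2, -0.02 with D12 in the fit and -0.69 without C1, while that of Lbp was 1.05 without C4 (adjusted p = 0.604), 0.87 without D11, 0.36 without C2, 0.33 without D9 and 0.33 with D12 in the fit. Their 95% intervals ran from -0.50 to 0.55 for Duox2, the narrowest, to -3.17 to 3.13 for Retnlb, the widest, and the interval of Retnlb alone held a 2-fold difference in either direction. Those of Pla2g2a, Lcn2 and Slpi reached past 2-fold lower in Group D and that of Lbp past 2-fold higher, while that of Duox2 held neither.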

How the data were processed

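Colonic RNA of 12 rats was hybridized, 1 rat per array, to 1-colour (Cy3) Agilent arrays. The scanner software (Feature Extraction 10.5.1.1 per the file headers) had subtracted the background from each intensity before the files were deposited, and these linear values had not been normalized from array to array. The authors also deposited a table of log2 values, quantile normalized over the arrays, whose columns have medians of 7.283 to 7.284 and follow their own arrays most closely (r of at least 0.9997 across probes), and which served as an alternative. Positions come from the files, which use the rn4 build.

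Here, each log2 signal was set relative to the 75th percentile of its array, spots marked as outliers and control spots were left out, and spots of a probe were averaged (30367 probes). None of the spots of the members was marked as an outlier. The 3 groups were fitted in 1 model with limma 3.58.1 (lmFit and eBayes, R 4.3.3, 11 arrays), and p-values of all probes were adjusted together by Benjamini-Hochberg. A probe counted as well above background on an array where at least 1 of its 2 spots was. Where the lower group had no such array, the fold is given against the lowest signal well above background, and the mean of the higher group keeps its rats near background. With 3 or 4 arrays in a group, precision is limited by their number. The rats are separate animals, and p-values set the differences of groups against the spread between rats. Litters are not stated, so whether rats of a group shared a litter is not known. The procedure was tested on simulated data. Lists were measured by the probe of each gene with the highest mean signal. A marker of the B and plasma cell list is not reported here. All members are named, and of the lists those genes that passed either test, besides relatives of members. Members and lists were chosen with earlier results of these data known. Duoxa1, Duox1, Retnla, Retnlg, Bpi, Muc2, Mpo, Wfdc15b and the genes that shared the 5 highest rats were named after their values were seen. Alternatives were the 12 arrays, other background corrections, scalings, filters, weights and tests, and each rat left out in turn. Files were read with the data.table package (version 1.17.8), and matplotlib 3.10.9 under Python 3.11.15 drew the plots.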

Additional observations from a re-analysis of the deposited data

Results flagged for a closer look

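In 2 of 30 groups of 4 rats, 1 rat lay far from the other 3, where chance flags about 1 in 20 groups. In Group M the Pla2g2a signal of M6 (0.24) was separated from the others (2.44 to 2.45) by a share of 0.994 of the whole range. In Group D the Slpi signal of D12 (1.84) was separated from the other 3 by a share of 0.831. Reg3g in D12, an array outside the 11 used for the tests, was well above background at -6.639, while no array of Group C was.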

How the results depend on the processing

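The count of members called by limma was 0 in each comparison, and it stayed at 0 under the alternatives other than those named here. With array weights it was 2 in Group M vs Group C (Pla2g2a and Retnlb) and 1 in Group D vs Group M (Pla2g2a). With each rat left out in turn it was between 0 and 1 in both of these comparisons, the 1 being Pla2g2a without M6, and 0 throughout in Group D vs Group C. With an unadjusted p and no fold it was 1, 3 and 1. The probes called in all were 2073 and 2063 with array weights, 10, 4 and 2 on 12 arrays, and 144 and 57 on 12 arrays without M6, a setting chosen after seeing the data. The cause of these shifts was not tested. No member's difference in Group M vs Group C or Group D vs Group M changed its direction where the member was above background, nor did those of Duoxa2. That of Slpi in Group D vs Group C turned to 0.43 on 12 arrays without C2. Over 23 settings, Pla2g2a ranged from 0.99 to 1.88 in Group M vs Group C and from -2.22 to -1.34 in Group D vs Group M, Duox2 from -0.60 to -0.39 and 0.24 to 0.72, and Duoxa2 from -0.999 to -0.68 and 0.72 to 1.30. Of the 92 values of Pla2g2a, Lcn2, Retnlb and Duox2 in Group D vs Group C, 17 had the other sign. Of 253 values for 11 other differences of list genes, 5 turned, all of Duox1, and 18 were called, all without M6 or with array weights. With array weights limma called 22 and 24 of the 124 list genes in the comparisons with Group M. With normexp background correction Bpi was at -0.49, Slc11a1 at -0.64, Rnase6 at -0.82 and Cxcl2 at -2.12, over 1.5 times smaller. The replicate numbers did not pair the rats, with correlations of their deviations from -0.719 to 0.176 and 1 of 10 over 0.1. They are also the column of the array on its slide. With the replicate block, 0 members were called in each comparison, the probes called in all were 1, 1 and 0, and the difference of Retnlb in Group D vs Group M was -0.86. A term for the slide could be fitted in no comparison with Group D. Signal over background limits what can be said of Reg3a, Reg3b and Reg3g.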
